A study of Mus musculus with 12 samples.

Results

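Lysosome and autophagy genes were followed through an RNA-seq experiment on PYMT-R221A, a line grown from a mouse mammary tumour of the polyoma middle T model. The set holds 46 of the 55335 genes in the count table, taken from a list of gene symbols; the list was drawn up with earlier results of these data known. It covers 3 transcription factors of lysosome biogenesis, 6 membrane proteins, 7 cathepsins, 9 glycosidases and lipases, 3 luminal cofactors, 7 subunits of the proton pump, 3 genes of autophagy initiation, 5 of autophagosome growth, and 3 for ATG8 proteins and their cargo receptor. All 46 were among the 14935 genes tested.

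The 12 libraries form 4 groups of 3, and every group is the same single cell line in culture. One arm compares cells labelled control with cells given KCC-07 at 40 µM, a small-molecule inhibitor of the methyl-CpG binding protein MBD2. The other arm compares cells transfected with a scramble siRNA with cells transfected with siRNA against Mbd2, called siMBD2. Whether the controls were given a solvent, and the lengths of treatment, are not given in the sources used here.

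Lysosomes are acidic organelles in which hydrolases break down proteins, glycans and lipids, and the V-ATPase pumps in the protons that keep them acidic. Autophagy delivers cytoplasmic cargo to them: ULK1 and the BECN1 complex start a membrane, ATG9 vesicles, WIPI proteins and the ATG5, ATG7 and ATG16L1 conjugation system extend it, and ATG8 proteins such as LC3B bind receptors such as p62, the product of Sqstm1. TFEB, TFE3 and MITF are related transcription factors that bind a CACGTG core, and many lysosomal genes are known targets. Their activity is set largely by phosphorylation and location in the cell, which mRNA levels do not report.

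Total counts ran from 25831299 to 33956792 per library. Levels are given as CPM (counts divided by the library total and put on a common scale), adjusted by edgeR's TMM factors, as mean ± SD with n = 3. Mbd2, the siRNA target, was at 77.2 ± 5.47 CPM with scramble and 33.7 ± 2.70 with siMBD2 (log2 fold change -1.20, SE 0.0867, edgeR quasi-likelihood adjusted p = 0.000197). With KCC-07 it was at 75.0 CPM against 75.1 in controls. The 8 epithelial markers were all at 1 CPM or more on average, and of 9 macrophage markers 7 were below 1 CPM, with Adgre1 and Tyrobp at 0 in every library. The third replicates stood apart within their groups: mitochondrial transcripts took 2.81% of counts in control replicate 3 against 1.45% and 1.47%, and 3.90% in KCC-07 replicate 3 against 1.82% and 1.55%.

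Levels between genes were compared per kilobase of exon length. Over all 12 libraries the most abundant member was Ctsd, the aspartic protease cathepsin D, at 620.5 CPM per kb. Psap, the precursor of the saposin activators of sphingolipid hydrolases, followed at 265, and the membrane glycoprotein Lamp1 at 223. Sqstm1 stood at 154 and Atp6ap1, an accessory subunit of the proton pump, at 55.0. Among the hydrolases of glycans and lipids the highest was Gaa, acid alpha-glucosidase, at 39.2. Of the initiation genes the highest was Becn1, a scaffold of the lipid kinase complex that starts the autophagosome, at 14.3, and of those for autophagosome growth it was Atg5, a part of the conjugation system, at 15.9. Tfe3, at 6.62, led the transcription factors, with Tfeb at 2.51. At the bottom were Mitf at 0.530, the macrophage-associated membrane protein Cd68 at 1.35, Galc at 1.37 and Atg9b at 1.76.

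**Figure D1:**
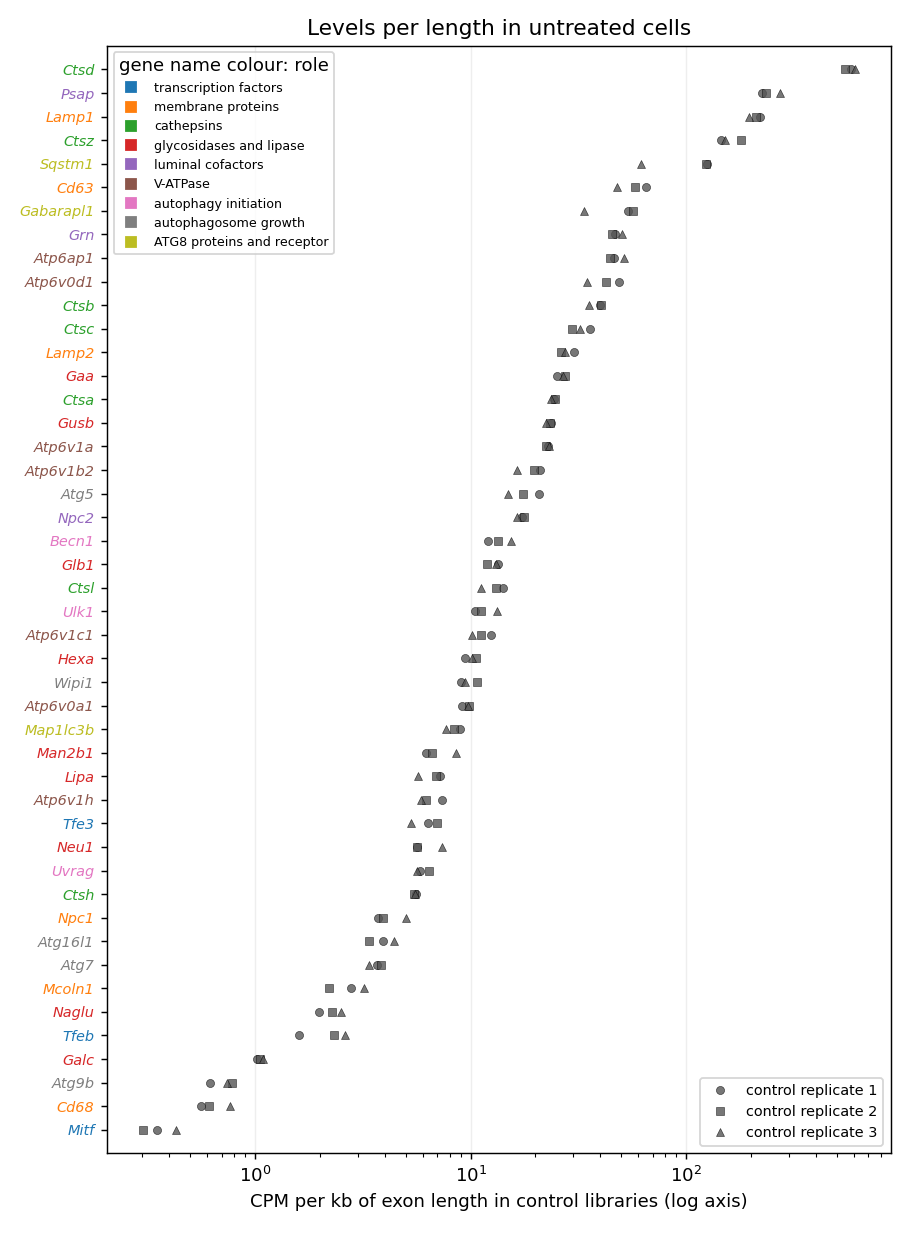
Level of each of the 46 genes in the 3 control libraries, in CPM per kb of exon length on a log axis; gene names are coloured by role and symbols mark replicates. Ctsd lies highest and Mitf lowest, and the 3 libraries of most genes lie close together compared with the distances between genes.

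Start-site regions were searched for the CACGTG core, a search added after the expression values had been seen. RefSeq regions on GRCm38.p6 (250 bases before to 50 after the start) were matched for 38 of the 46 genes. CACGTG, which reads the same on both strands, was in 12 of the 38 (31.6%), against 8.09% of all genes of the table and 11.6% of the tested genes that matched. The longer TCACGTG, on either strand and always overlapping the shorter, was in 10 of the 38 (26.3%), against 4.29% and 6.82%. The stretches below lie upstream of the start and are shown because their genes cover the membrane, protease, hydrolase and pump roles; they are 5′ to 3′ on the gene's strand, with each CACGTG in capitals.
Lamp1, chr8:13159088-13159160: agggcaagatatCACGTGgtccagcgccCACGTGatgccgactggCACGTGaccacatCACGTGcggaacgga
Mcoln1, chr8:3500436-3500491: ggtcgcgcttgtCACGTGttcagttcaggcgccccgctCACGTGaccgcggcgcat
Ctsd, chr7:142387908-142387937: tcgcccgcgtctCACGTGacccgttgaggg
Gaa, chr11:119267811-119267840: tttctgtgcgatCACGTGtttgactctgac
Glb1, chr9:114401018-114401047: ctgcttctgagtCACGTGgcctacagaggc
Naglu, chr11:101070009-101070038: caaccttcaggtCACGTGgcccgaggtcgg
Atp6v1a, chr16:44139373-44139402: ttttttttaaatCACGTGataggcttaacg
Lamp1 carries 4 copies and Mcoln1, the lysosomal calcium channel TRPML1, carries 2. In Ctsd and Ctsa a matched region also holds 2, and the Ctsd stretch above shows only 1 of them. A match is a run of letters and does not show that a factor binds there.

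KCC-07 was followed by higher levels of 5 members, and no member passed the test in the other direction. Atg9b, Mitf, Sqstm1, Man2b1 and Uvrag rose, 3 of them from the autophagy steps. They are 10.9% of the 46, where 3.58% of all tested genes rose and 2.08% fell (edgeR quasi-likelihood test, adjusted p under 0.05). The median log2 fold change was 0.27 over the members and 0.02 over all tested genes, with 36 of 46 members above 0. In bulk RNA, a change in the mix of cells and a change in RNA per cell cannot be told apart. The summed marker levels of other classes moved with the treatment. The 8 epithelial markers were at 1403 to 1576 CPM in controls and 1699 to 1768 with KCC-07. The 7 fibroblast markers were at 186 to 218 CPM and 102 to 160.5. Most of the fibroblast sum is Pdgfra, at 151 CPM in controls and 110 with KCC-07, and Col1a1 and Pdgfrb had lower means too. Col1a2, Col3a1, Dcn and Lum were below 1 CPM in both, and Col1a2 and Col3a1 had higher means with KCC-07. Krt8, the most abundant of the epithelial markers, went against the epithelial sum, with means of 510 CPM in controls and 455 with KCC-07. The other epithelial markers had higher means with KCC-07, Esrp1 only slightly, at 269 and 275 CPM. The part of these markers in the result was not tested.

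Atg9b encodes one of the ATG9 membrane proteins that seed the autophagosome (chromosome 5, 24384181 to 24392143, minus strand, GRCm38). It was at 2.43, 3.10 and 2.93 CPM in the control libraries and at 13.3, 9.88 and 30.0 CPM with KCC-07. Every treated library lay above every control, and KCC-07 replicate 3 was the highest. The fitted change was 6.27-fold (log2 2.65, SE 0.358, edgeR adjusted p = 0.00374), the largest among the members. Without KCC-07 replicate 3 it was 2.04 on the log2 scale (edgeR adjusted p = 0.000766). Scramble libraries held 4.21, 3.84 and 2.70 CPM and siMBD2 libraries 3.48, 3.83 and 3.82, all below the treated ones. Nos3, which overlaps Atg9b on the other strand, was at 0.488 CPM in controls and 0.572 with KCC-07, and the counting's use of strand is not given in the sources used here.

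Sqstm1 encodes p62, which carries ubiquitinated cargo into autophagosomes and is also a target of the stress factor NRF2 (chromosome 11, 50199366 to 50210827, minus strand). It was measured at 419.8, 417 and 208 CPM in controls, and at 708, 671 and 524 after KCC-07. The groups did not overlap, and replicate 3 was the lowest in both. The log2 fold change was 0.87 (SE 0.216, edgeR adjusted p = 0.0405), and 0.60 without control replicate 3 (edgeR adjusted p = 0.0120). Mrnip, on the opposite strand, stood at 6.05 CPM in controls and 5.28 with KCC-07. Scramble libraries were at 577, 559 and 518 CPM and siMBD2 libraries at 529, 529 and 539.7, both above all controls.

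Uvrag encodes a partner of BECN1 in the complex that makes phosphatidylinositol 3-phosphate (chromosome 7, 98885021 to 99141141, minus strand). It had 52.5, 57.7 and 50.8 CPM in controls, against 68.3, 71.5 and 82.3 after KCC-07. All treated libraries were above all controls, at a log2 fold change of 0.47 (SE 0.0881, edgeR adjusted p = 0.0134). Scramble libraries held 55.9, 57.6 and 56.8 CPM, and siMBD2 libraries 50.8, 50.8 and 49.4. Becn1 itself had 85.3, 95.1 and 109 CPM in controls and 96.9, 97.6 and 116 with KCC-07, overlapping ranges (log2 0.10, edgeR adjusted p = 0.596).

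**Figure D2:**
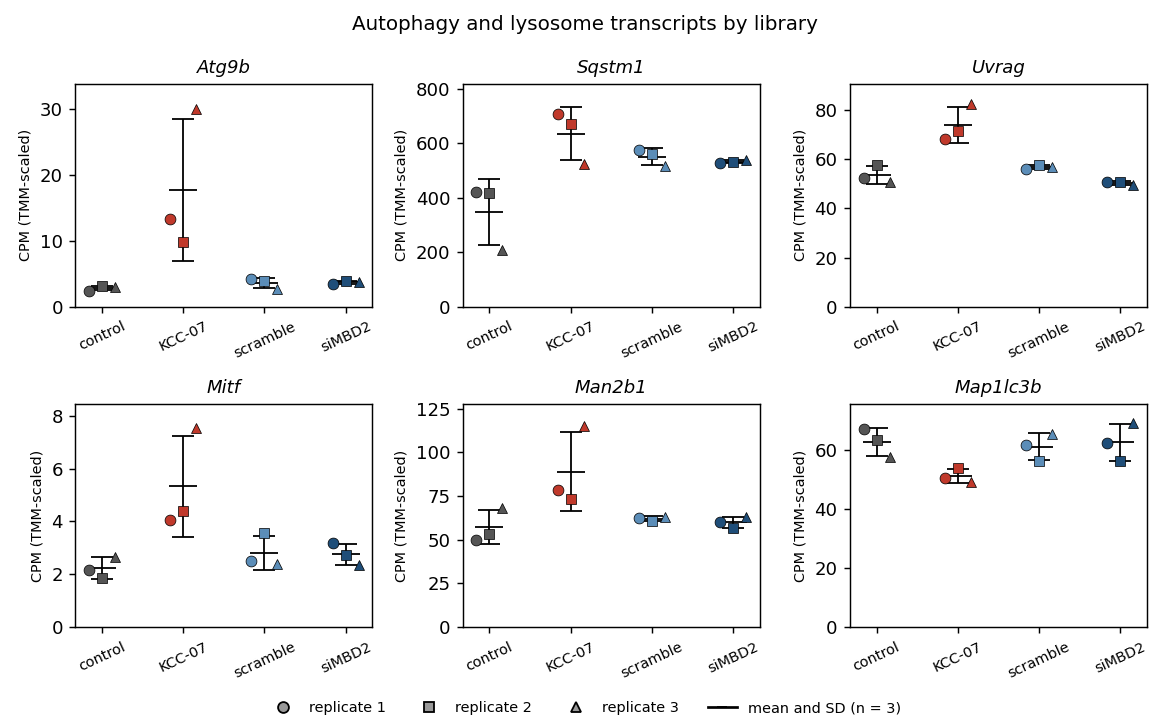
CPM of 6 genes in each library by group, with symbols for replicates and bars for the mean and SD (n = 3). For Atg9b, Sqstm1, Uvrag, Mitf and Man2b1 all 3 KCC-07 libraries lie above all 3 controls; for Map1lc3b they lie below.

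The other steps of autophagy moved less. Map1lc3b, which encodes LC3B, had 66.8, 63.1 and 57.6 CPM in controls and 50.4, 53.7 and 49.1 with KCC-07, no overlap and lower with treatment. Its log2 fold change of -0.29 did not pass the test (edgeR adjusted p = 0.101) but did with the replicate number added to the model as a block (edgeR adjusted p = 0.0196). Zcchc14, which overlaps it on the opposite strand, was near its level, at 56.1 CPM in controls and 53.9 with KCC-07. Atg5 had 48.8, 41.0 and 35.0 CPM in controls and 39.2, 43.3 and 34.8 with KCC-07, which overlap. Atg5, Atg7 and Atg16l1 had log2 fold changes of -0.09, -0.09 and -0.06, none past the test. Gabarapl1, another ATG8 protein, was at 0.28 with an edgeR adjusted p of 0.337.

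Of the 3 transcription factors, Mitf rose (chromosome 6, 97807052 to 98021349, plus strand). It was at 2.17, 1.87 and 2.67 CPM in controls and 4.06, 4.39 and 7.55 with KCC-07, without overlap and low in every library. The log2 fold change was 1.25 (SE 0.278, edgeR adjusted p = 0.0252), and the call was lost without KCC-07 replicate 3 (0.92, edgeR adjusted p = 0.0532). With replicate 3 of every group left out Mitf was called (1.07, edgeR adjusted p = 0.0116). Scramble libraries held 2.48, 3.56 and 2.40 CPM and siMBD2 libraries 3.18, 2.72 and 2.36. Tfe3 had 58.8, 65.0 and 48.9 CPM in controls and 73.7, 67.1 and 67.3 with KCC-07, above every control but short of the test (log2 0.27, edgeR adjusted p = 0.163). With scramble Tfe3 was at 63.7, 62.2 and 56.0 CPM, and with siMBD2 at 60.8, 59.8 and 52.5. Tfeb overlapped between control (9.11, 13.2 and 14.9 CPM) and KCC-07 (13.9, 14.2 and 16.7 CPM). Its scramble libraries held 16.6, 17.4 and 14.1 CPM and its siMBD2 libraries 14.7, 13.1 and 13.1.

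Man2b1, the lysosomal alpha-mannosidase, was the hydrolase that rose (chromosome 8, 85083270 to 85098282, plus strand). It stood at 50.01, 53.3 and 68.3 CPM in controls, and at 78.3, 73.5 and 115 after KCC-07. Scramble libraries were at 62.2, 60.5 and 63.2 CPM and siMBD2 libraries at 60.0, 56.7 and 63.0. The treated libraries did not overlap the controls (log2 0.64, SE 0.162, edgeR adjusted p = 0.0429). Without KCC-07 replicate 3 the change was 0.41 and no longer called (edgeR adjusted p = 0.0837). With replicate 3 of every group left out it was 0.56 and called (edgeR adjusted p = 0.00112). Gaa had 121, 131 and 129 CPM in controls and 140.0, 137 and 266 with KCC-07. Its libraries also did not overlap, but replicate 3 carried most of the difference (log2 0.51, edgeR adjusted p = 0.167). Neu1, the sialidase, had 21.1, 20.9 and 27.4 CPM in controls and 29.4, 27.8 and 75.1 with KCC-07 (log2 0.93, edgeR adjusted p = 0.137). Without KCC-07 replicate 3 its change was 0.31, and with replicate 3 of every group left out it was 0.45 (edgeR adjusted p = 0.00375).

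The most abundant lysosomal transcripts were not among those called. Lamp1 had 593, 563 and 525 CPM in controls and 517, 527 and 591 with KCC-07 (log2 -0.04, edgeR adjusted p = 0.800). Lamp2 and Cd63 were at 0.01 and -0.03. Ctsd was lower in every treated library, at 1267, 1244 and 898 CPM against 1368, 1292 and 1429.7, but did not pass (log2 -0.26, edgeR adjusted p = 0.206). Psap had 618, 645 and 753 CPM in controls and 658, 665 and 909.7 with KCC-07, which overlap. Atp6ap1 overlapped too, at 140.2, 134 and 156 CPM against 145, 145 and 175.

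Counted after the values had been seen, the KCC-07 libraries lay wholly above the controls for 19 members (12.3% of all tested genes did) and wholly below for 2, Ctsd and Map1lc3b (10.6%). The 19 include 3 pump subunits beside Atp6v0a1 (Atp6v1a, Atp6v1b2 and Atp6v1h) and the hydrolases Gaa, Glb1, Hexa, Man2b1 and Neu1. Of the 12 genes with CACGTG, 0 rose with KCC-07, where 3.71% of all tested genes with it did, and of the 26 matched genes without it, 5 rose, where 3.85% did. Both sets of members had a median log2 fold change of 0.28, with 7 of the 12 and 22 of the 26 above 0. Of all tested genes, 640 of 1214 with CACGTG and 4931 of 9193 without it were above 0.

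The size of the KCC-07 difference varied with the replicate, which the labels tie to a batch. Paired by number, the median log2 ratio of the members was 0.15, 0.11 and 0.50 in replicates 1, 2 and 3, and the third was the largest for 39 of 46 members (38.9% of all tested genes). For the 32 lysosomal members the medians were 0.09, 0.12 and 0.56, with the third largest in 30. For the 11 autophagy members they were 0.19, 0.08 and 0.09. KCC-07 replicate 3 also had the highest mitochondrial share, 3.90%, and the part of this in the result was not tested. With the replicate number as a block, 13 members rose and 1 fell, where 12.8% of all tested genes rose and 9.00% fell. The block added Tfe3, Cd68, Npc1, Ctsh, Hexa, Neu1, Npc2 and Atp6v0a1. Leaving out replicate 3 of every group, 12 rose, against 15.1% of tested genes, and 1 fell, against 10.5%.

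**Figure D3:**
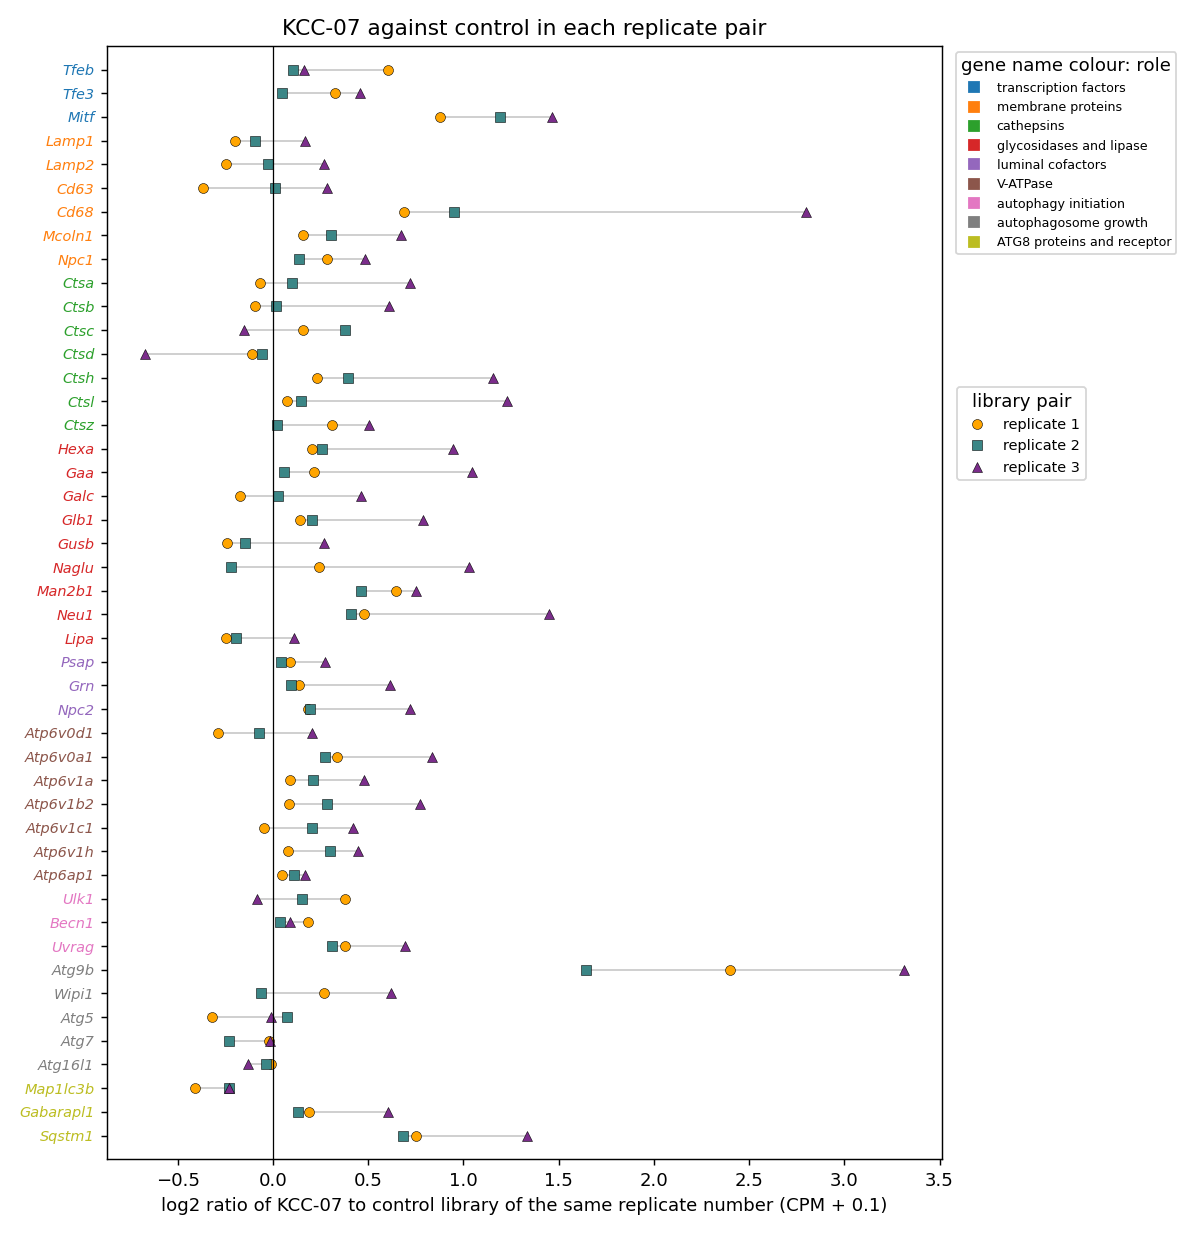
Log2 ratio of KCC-07 to control for each gene in the 3 replicate pairs (CPM plus 0.1), with gene names coloured by role. The replicate 3 points are the farthest to the right for 39 of the 46 genes.

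Cd68 rested largely on 1 library. It had 0.703, 0.766 and 0.957 CPM in controls and 1.19, 1.57 and 7.25 with KCC-07, so that replicate 3 held most of the group's signal (log2 2.04, edgeR adjusted p = 0.0581). Without it the change was 0.77. The summed macrophage markers were at 115 to 172 CPM in controls and 98.4 to 129 with KCC-07, with the lowest value of that group in replicate 3. Most of that sum is Cd14, at 136 CPM in controls and 113 with KCC-07. Other markers of the list had higher means with KCC-07: Csf1r was at 3.56 and 4.84 CPM, Lyz2 at 0.0209 and 0.277, Ptprc at 0 and 0.0711, and Itgam at 0 and 0.0579. Lyz2, Ptprc and Itgam were near the floor, with at most 16, 3 and 4 counts in any library. The part of these markers in the Cd68 difference was not tested.

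The number of KCC-07 calls varied with the fit. Fitted on its own 6 libraries the comparison called 0 members, with 12 members at an unadjusted p under 0.05, and DESeq2's Wald test called 9. In the main edgeR fit 21 of 46 members had an unadjusted p under 0.05, as did 3744 of the 14935 tested genes. For the other fits named here the share of all tested genes is not given. Leaving out 1 library at a time gave 2 to 7 calls; Atg9b and Uvrag were called in 6 of 6 such fits, and Mitf, Man2b1 and Sqstm1 in 3 of 6 each.

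Further genes of the same pathways, 145 in 6 lists of which 140 were tested, gave 2 that rose and 1 that fell with KCC-07. These shares of 1.43% and 0.714% lie below the 3.58% and 2.08% of all tested genes. All 3 called genes were among the 30 tested further hydrolases and cofactors, whose median log2 fold change was 0.28. Gm2a, the activator of ganglioside breakdown, went from 26.8, 21.5 and 24.2 CPM to 42.8, 40.6 and 85.2 (log2 1.22, edgeR adjusted p = 0.0137). Smpd1, acid sphingomyelinase, went from 4.36, 4.83 and 4.64 CPM to 6.52, 7.94 and 11.4 (log2 0.90, edgeR adjusted p = 0.0243). Ids, iduronate sulfatase, went the other way, from 63.0, 71.6 and 92.7 CPM to 53.9, 52.9 and 50.4 (log2 -0.53, edgeR adjusted p = 0.0277). Treated and control libraries did not overlap for any of the 3. No gene was called among the 26 further membrane and sorting proteins, 13 pump subunits, 33 core autophagy genes, 11 autophagy receptors and 27 genes of nutrient sensing, with medians of 0.20, 0.10, 0.04, 0.10 and 0.05.

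Knockdown of Mbd2 was followed by no called change among the members. The edgeR quasi-likelihood test called 0 of 46, where it called 0.0402% of all tested genes. Its unadjusted p was under 0.05 for 786 of the 14935 tested genes and for 1 member, Atp6ap1. Atp6ap1 had 169, 163 and 178 CPM in scramble libraries and 191, 188 and 213 in siMBD2 libraries (log2 0.22, edgeR adjusted p = 0.931). DESeq2 called 0, and so did edgeR with the replicate block over all libraries, which called 0.750% of all tested genes. The median log2 fold change was 0.09 over the members and 0.00 over all tested genes, with 34 of 46 above 0.

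The individual levels were close. Ctsd had 1567, 1543 and 1721 CPM with scramble and 1669, 1663 and 1843 with siMBD2. Psap had 724, 708 and 728 against 781, 746 and 789.6, and Gaa 196, 188 and 222 against 226, 218 and 278. Of these 3 only Psap had all siMBD2 libraries above all scramble libraries. Lamp1 was at 644, 632 and 668 CPM against 630.1, 618 and 655, Becn1 at 97.6, 96.3 and 106 against 99.3, 100.3 and 112, and Atg5 at 36.1, 32.1 and 34.6 against 36.9, 32.0 and 34.3. These 3 overlap. In all, siMBD2 libraries lay wholly above scramble for 12 members (10.3% of tested genes) and wholly below for 2, Uvrag and Atg7 (11.6%).

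Of 14 alternative fits of this comparison, 13 called 0 members and 1 called 20. That 1 used its 6 libraries alone with the replicate block, leaving 2 residual degrees of freedom, and it is described because of its result. In it 19 members rose and 1, Uvrag, fell (log2 -0.17), where 9.60% of tested genes rose and 10.2% fell. The changes were small: the highest was Neu1 at 1.25-fold, followed by Gaa at 1.19-fold and Ctsl at 1.18-fold, and Ctsd was at 1.07-fold.

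**Figure D4:**
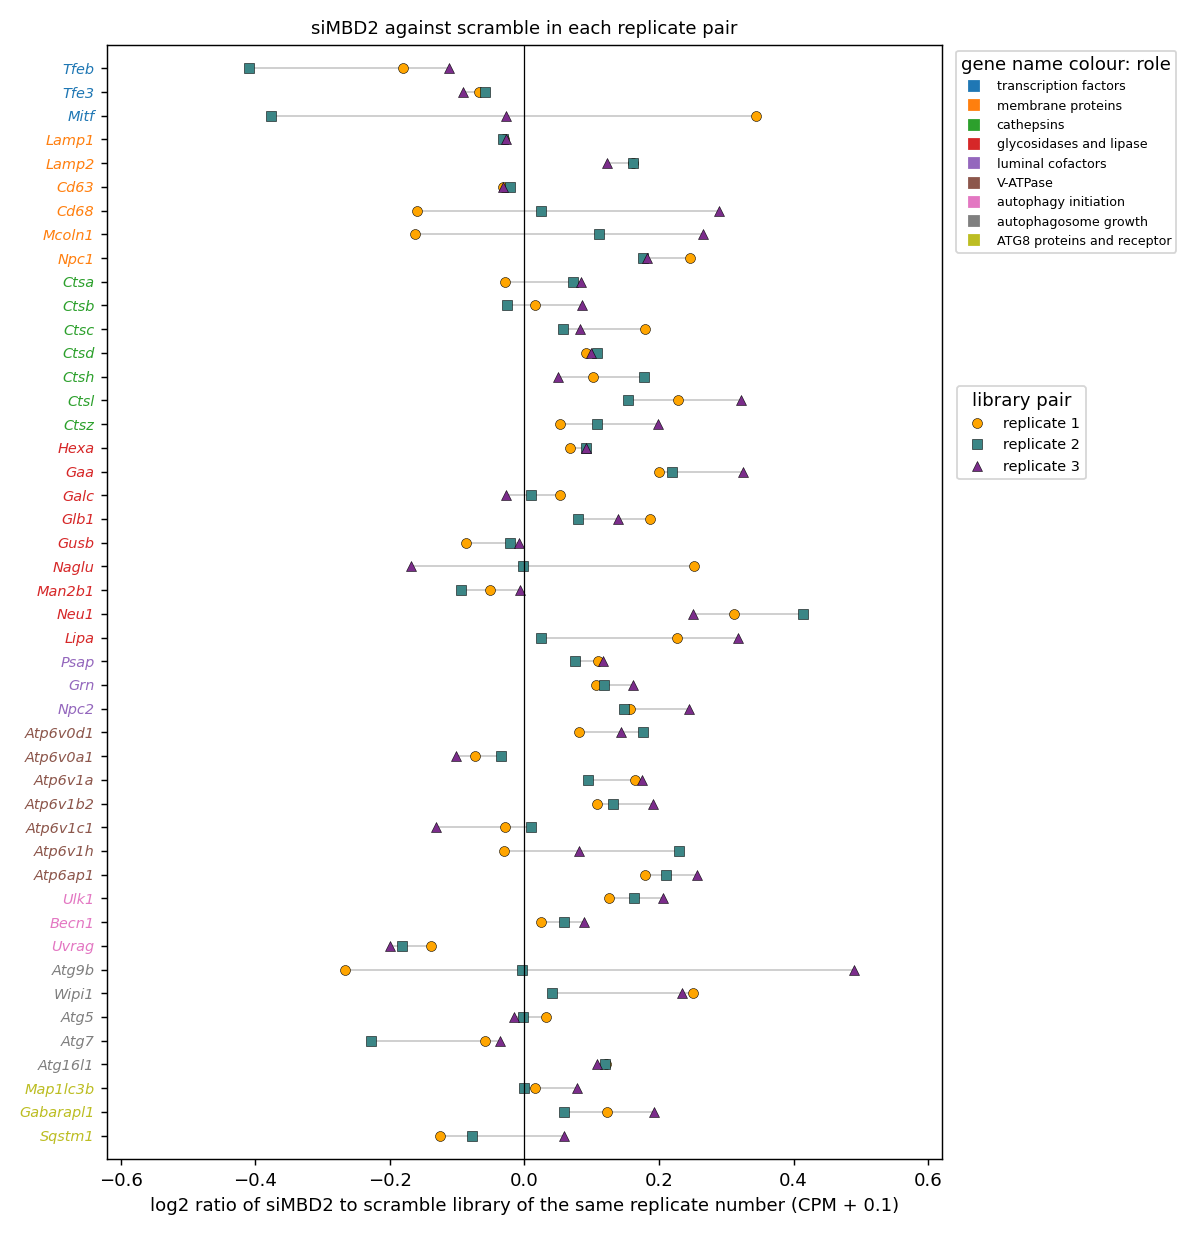
Log2 ratio of siMBD2 to scramble for each gene in the 3 replicate pairs (CPM plus 0.1), with gene names coloured by role. Points farther than 0.4 from 0 belong to Tfeb, Neu1 and Atg9b.

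Where the 2 perturbations were compared directly, as the KCC-07 effect minus the siMBD2 effect, 2 members differed: Atg9b (log2 2.60, SE 0.495, edgeR adjusted p = 0.0443) and Uvrag (log2 0.64, SE 0.125, edgeR adjusted p = 0.0458). Of all tested genes 0.656% differed. Both were higher with KCC-07, while with siMBD2 Atg9b was at 0.05 and Uvrag at -0.17. With the replicate block 5 members differed, against 6.90% of tested genes, the others being Mitf, Man2b1 and Sqstm1. Leaving out 1 library at a time, Atg9b was called in 3 of 12 fits and Uvrag in 2 of 12. The KCC-07 and siMBD2 effects share no library. Above 0 in both were 28 of 46 members (60.9%) and 27.4% of all tested genes. Taken singly, 36 of 46 members were above 0 with KCC-07 and 34 of 46 with siMBD2, against 51.8% and 50.9% of all tested genes. A high share above 0 in both therefore needs no link between the effects. Across the members Spearman's rho between the effects was 0.06.

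**Figure D5:**
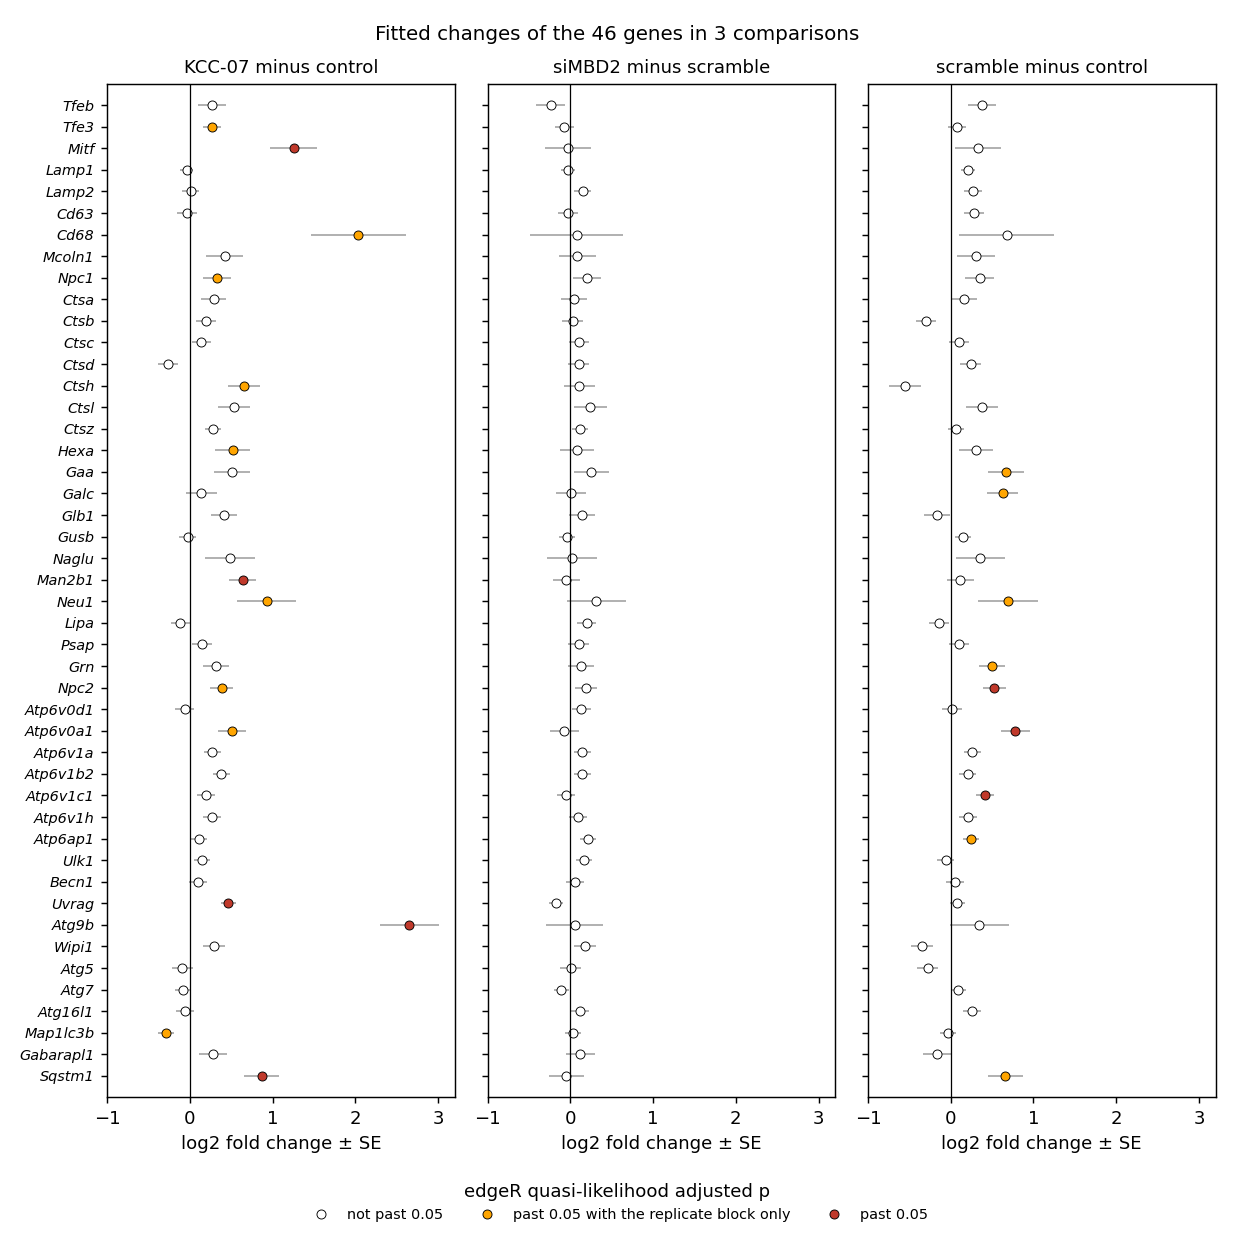
Fitted log2 fold change with its standard error for the 46 genes in 3 comparisons; red marks an edgeR adjusted p under 0.05 and orange one that passed with the replicate block only. There are 5 red points for KCC-07, none for siMBD2 and 3 for scramble against control.

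The scramble siRNA was itself set against the controls, a comparison of transfected cells with cells labelled control. Whether these cultures were grown side by side, or shared batches, is not given in the sources used here. Library names number the third replicate differently in the 2 arms. Atp6v0a1, Npc2 and Atp6v1c1 rose and no member fell, where 4.71% of all tested genes rose and 4.08% fell. The members' median log2 fold change was 0.22 and that of all tested genes -0.03, with 37 of 46 above 0. This comparison shares its controls with the KCC-07 one.

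Atp6v0a1, a membrane subunit of the pump (chromosome 11, 101009452 to 101063719, plus strand), had 60.1, 64.7 and 63.9 CPM in controls and 95.6, 97.9 and 131 with scramble. It was at 75.9, 78.4 and 114 CPM with KCC-07 and 90.8, 95.6 and 122 with siMBD2. Every library of the other groups was above every control (scramble: log2 0.78, SE 0.175, edgeR adjusted p = 0.0211). Npc2, which binds cholesterol in the lumen and passes it to NPC1 (chromosome 12, 84754562 to 84773152, minus strand), had 94.0, 96.7 and 89.3 CPM in controls and 128, 125 and 150.1 with scramble. It had 107, 111 and 147 CPM with KCC-07 and 143, 138 and 178 with siMBD2. Npc2 too was lowest in the controls (scramble: log2 0.53, SE 0.137, edgeR adjusted p = 0.0361). Atp6v1c1, a cytosolic subunit of the pump (chromosome 15, 38661933 to 38692446, plus strand), had 70.0, 62.4 and 56.9 CPM in controls and 76.8, 79.9 and 95.7 with scramble (log2 0.42, SE 0.110, edgeR adjusted p = 0.0387). Its KCC-07 libraries, at 67.8, 72.0 and 76.1 CPM, overlapped the controls, and its siMBD2 libraries held 75.3, 80.4 and 87.4.

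With the replicate number shared across the arms as a block, 9 members rose, against 7.39% of tested genes: the same 3 with Gaa, Galc, Neu1, Grn, Atp6ap1 and Sqstm1. Scramble libraries lay wholly above controls for 23 members (16.4% of tested genes) and wholly below for 4, Ctsb, Ctsh, Glb1 and Wipi1 (16.8%). Leaving out 1 library at a time gave 0 to 6 calls, 0 of them without control replicate 2 or any 1 scramble library. Without replicate 3 of every group 19 members rose, against 21.6% of tested genes, and 6 fell (Ctsb, Ctsh, Lipa, Wipi1, Atg5 and Gabarapl1), against 19.6%.

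Among the 140 further genes 7 rose and 8 fell with scramble, shares of 5.0% and 5.71% that lie close to the 4.71% and 4.08% of all tested genes. In nutrient sensing 4 of 27 rose and 0 fell, led by Fnip2 (26.3 ± 2.68 to 52.2 ± 1.06 CPM, edgeR adjusted p = 0.00282), Rragc (60.4 ± 1.87 to 83.6 ± 4.69 CPM, edgeR adjusted p = 0.00774) and Rragd (33.3 ± 5.82 to 66.3 ± 3.47 CPM, edgeR adjusted p = 0.0101), which act in recruiting mTORC1 to the lysosome. Of 11 autophagy receptors 1 rose and 4 fell, led by Bnip3 (23.3 ± 3.24 to 13.4 ± 2.44 CPM, edgeR adjusted p = 0.0137) and Bnip3l (92.2 ± 6.03 to 52.5 ± 2.78 CPM, edgeR adjusted p = 0.0186), receptors for mitochondria. Nbr1, a relative of p62, fell from 117 ± 4.97 to 82.7 ± 7.53 CPM (edgeR adjusted p = 0.0194). Of 33 further core autophagy genes 0 rose and 3 fell, Atg13, Wdr45 and Map1lc3a, with log2 fold changes of -0.60, -0.56 and -0.46. Among the further membrane and sorting proteins Clcn7 rose (0.49) and Abcb9 fell (-0.58). With siMBD2 against scramble 0 of the 140 further genes were called by edgeR. Among them 9 had an unadjusted p under 0.05, as did 786 of the 14935 tested genes.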

How the data were processed

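PolyA RNA from 12 cultures of 1 cell line was sequenced. The authors deposited whole-number read counts per gene. DRAGEN, DESeq2 1.44.0, mm10 and GRCm38.p6 appear in the submitters' processing notes with no role stated; annotation, strand setting and treatment of multi-mapping reads are not given in the sources used here. Total counts per library were 25831299 to 33956792.

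The members and gene lists were chosen with earlier results of these data known. Counts were fitted with edgeR 4.0.16 (R 4.3.3): TMM scaling, filterByExpr (minimum count 10, total 15), 1 mean per group over all 12 libraries (8 residual degrees of freedom), glmQLFit and glmQLFTest, with Benjamini-Hochberg adjustment over all 14935 tested genes and a threshold of 0.05. The method was tested on simulated counts. Values were given in every library for members past the threshold in any comparison, the 3 transcription factors and the member of each role with the highest level per length; other members were named after their values were seen. From each further list, up to 3 called genes with the smallest adjusted p per comparison were named. One of these is not reported here. Exon lengths and positions came from GENCODE M21 (GRCm38). No near-identical copy of a member was found.

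The labels give the replicate number as a batch, so the numbers pair libraries within an arm. Deviations from group means of same-numbered libraries correlated at 0.27, 0.28 and 0.48 for control and KCC-07. The values were 0.09, 0.15 and 0.42 for scramble and siMBD2, and 0.07, 0.02 and 0.13 for control and scramble. Between numbers 1 and 2 they were 0.30 and 0.17 for control and KCC-07, and 0.21 and 0.18 for scramble and siMBD2. Between number 3 and the others they were -0.42 to -0.30 and -0.30 to -0.23. Within each arm the correlations thus set apart only number 3. The block fit used the number within each arm (4 residual degrees of freedom), and for scramble against control the number shared by all groups (6), although whether the arms shared batches is not given in the sources used here. Other alternatives were DESeq2 size factors, DESeq2 1.42.0's Wald test, no filter, a filter at 1 CPM in 3 libraries, the 6 libraries of a comparison alone with and without the block, replicate 3 left out, and each library left out.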

Additional observations from a re-analysis of the deposited data

Results flagged for a closer look

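The KCC-07 effect differed from the siMBD2 effect for 2 members by a test of the difference itself. For Atg9b the difference was 2.60 on the log2 scale (SE 0.495, edgeR adjusted p = 0.0443), with all 3 KCC-07 libraries above all controls and the siMBD2 libraries within the range of the scramble libraries. For Uvrag it was 0.64 (SE 0.125, edgeR adjusted p = 0.0458), with KCC-07 libraries above all controls and siMBD2 libraries below all scramble libraries. Over 18 alternatives the edgeR or DESeq2 adjusted p ranged from 5.12e-05 to 0.143 for Atg9b and from 0.000323 to 0.156 for Uvrag. Groups of 3 libraries were too small for a check of single outlying libraries.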

How the results depend on the processing

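None of the medians and gene fold changes that were recomputed changed sign under the alternatives run. Of the called members, the KCC-07 count of 5 became 14 with the replicate block over all libraries, 0 on its 6 libraries alone, 3 on those with the replicate block, 9 with DESeq2's Wald test, 13 without replicate 3 of every group, and 2 to 7 leaving out 1 library. The siMBD2 count of 0 became 20 on its 6 libraries with the replicate block and stayed at 0 in the other 13 alternatives; its median of 0.09 ranged from 0.035 to 0.11 leaving out 1 library. The count of 2 for the difference of effects became 1 without a filter, 5 with the replicate block, 5 without replicate 3 and 0 to 2 leaving out 1 library. The scramble count of 3 became 7 without a filter, 9 with the replicate block, 6 on its 6 libraries alone, 2 on those with the replicate block, 8 with DESeq2's Wald test, 25 without replicate 3 and 0 to 6 leaving out 1 library. Its median of 0.22 became 0.23 with DESeq2 size factors, 0.22 with the filter at 1 CPM, 0.23 with the Wald test, 0.18 without replicate 3 and 0.19 to 0.25 leaving out 1 library. The fits also called different shares of all tested genes. With the replicate block these were 21.8% for KCC-07, 6.90% for the difference and 13.8% for scramble. In the main fit they were 5.65%, 0.656% and 8.79%. Without replicate 3, 15.1% rose and 10.5% fell with KCC-07, and 21.6% rose and 19.6% fell with scramble. In the siMBD2 fit that called 20, 9.60% rose and 10.2% fell. Shares for the other fits are not given here. Fits on fewer libraries also have fewer residual degrees of freedom. The cause of the shifts between fits was not tested. Depth limits Mitf, Cd68 and Atg9b most, which were below 4 CPM in every control library.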
